A study of Homo sapiens with 6 samples.

Results

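The endoplasmic reticulum (ER) holds its own branch of the HSP70, HSP90 and J-domain chaperone families, and 10 of its genes were followed here through 6 libraries of a transfected human cell line. They were HSPA5, HSP90B1, HYOU1, DNAJB9, DNAJB11, DNAJC3, DNAJC10, SDF2L1, SIL1 and DNAJC1, taken by name from a count table of 37993 gene symbols, and each had a row and at least 5 CPM (counts per 1000000 counts of a library) in at least 1 library. The cells, an easily transfected human embryonic kidney line, were HEK293T in the sample titles and HEK293 in the protocols and count headers. Cultures overexpressed ATF6 labelled wild type (WT), M67V (missense), N267star (nonsense), or the multiexon deletions ex2-3del and ex8-14del, and a non-transfected culture was the control. All of them came from the same line and kept the endogenous ATF6 gene, and no source used here gives the time from transfection to harvest. The control is non-transfected in the sample labels, whereas an empty vector appears in the growth protocol. By its label the control differs from all allele libraries in transfection as well as in ATF6, and ratios to it do not separate these.

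With 1 library per group, replicate spread is unknown and conditions could not be tested against each other. A range in brackets after a log2 ratio is its exact 95% interval from the counts of both libraries. It covers counting error only and compares libraries, not conditions. The library totals lay between 16023952 and 16813355 counts. The authors' deposited comparison table for the WT library carries a number in place of WT, and its fold changes equal, within a tolerance of 0.001 on the log2 scale, those that another deposited table gives under WT for all 15473 genes finite in both. No source used here states whether the WT construct was the full-length protein. ATF6 itself stood at 1148 CPM with WT, 1493 with M67V, 713 with N267star, 1349 with ex2-3del and 2410 with ex8-14del, against 85.1 CPM in non-transfected cells, a count that pools endogenous transcripts with those of the transfected allele. The deletion alleles lack exons by their labels, and these ATF6 levels were not scaled for transcript length. They therefore do not compare numbers of ATF6 transcripts between alleles. Of 10 markers chosen for the embryonic kidney line, 7 reached 5 CPM in some library, while EPCAM, PAX2 and LHX1 did not. Of 17 markers of blood, endothelium, fibroblasts, hepatocytes and muscle, COL1A1 and ACTA1 reached 5 CPM, HBB, CDH5 and DCN were at 0 in all libraries, and the summed level was between 39.2 and 43.7 CPM in transfected cultures and 46.5 CPM in non-transfected cells. Bulk libraries do not tell a change in every cell from a change in the transfected part of a culture, and fewer cells of a type and less RNA per cell cannot be told apart.

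ATF6 is one of the sensors of the unfolded protein response. It sits in the ER membrane, travels to the Golgi when unfolded proteins build up, and is cut there by the site-1 and site-2 proteases, so that its cytosolic part enters the nucleus and binds promoters of ER chaperone genes together with the factor NF-Y. HSPA5 encodes BiP, the HSP70 of the ER lumen, which grips and releases unfolded chains in a cycle of ATP binding and hydrolysis. J-domain proteins bring it clients and trigger hydrolysis, and nucleotide exchange factors reset it, while HSP90B1 encodes GRP94, the HSP90 of the ER, which acts on later folding stages of selected clients.

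The promoters of 4 of the genes are shown because ER stress response elements are the known landing sites of ATF6 in this family. The sequences are from RefSeq on build GRCh38.p14, which differs from the GRCh37.p13 build named in the submitters' processing notes, and 9 of the 10 genes had a window. Each line gives the 250 bases before the annotated start, 5′ to 3′ on the strand of the gene. Capitals mark the fixed letters of a match to the ER stress response element ERSE (CCAAT, then any 9 bases, then CCACG), to ERSE-II (ATTGG, any base, CCACG) or to the core TGACGTGG of the unfolded protein response element, each searched on both strands in windows of 300 bases that reach 50 bases past the start.
HSPA5, chr9:125241344-125241593, minus strand: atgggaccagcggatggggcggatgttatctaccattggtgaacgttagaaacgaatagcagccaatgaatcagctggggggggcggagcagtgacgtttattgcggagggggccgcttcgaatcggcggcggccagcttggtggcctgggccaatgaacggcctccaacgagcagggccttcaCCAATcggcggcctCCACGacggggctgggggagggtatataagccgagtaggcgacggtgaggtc
HSP90B1, chr12:103930160-103930409, plus strand: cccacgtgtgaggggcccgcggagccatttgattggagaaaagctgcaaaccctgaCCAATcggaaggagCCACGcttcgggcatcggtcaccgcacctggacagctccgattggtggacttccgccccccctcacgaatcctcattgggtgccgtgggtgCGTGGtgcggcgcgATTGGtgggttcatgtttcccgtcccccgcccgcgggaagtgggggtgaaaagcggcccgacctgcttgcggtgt
HYOU1, chr11:119057206-119057455, minus strand: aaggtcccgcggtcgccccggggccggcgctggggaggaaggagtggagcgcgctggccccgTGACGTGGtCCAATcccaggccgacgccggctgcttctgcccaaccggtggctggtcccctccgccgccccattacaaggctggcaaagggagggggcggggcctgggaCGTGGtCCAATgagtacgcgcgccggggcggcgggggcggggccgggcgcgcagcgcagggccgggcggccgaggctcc
SDF2L1, chr22:21642052-21642301, plus strand: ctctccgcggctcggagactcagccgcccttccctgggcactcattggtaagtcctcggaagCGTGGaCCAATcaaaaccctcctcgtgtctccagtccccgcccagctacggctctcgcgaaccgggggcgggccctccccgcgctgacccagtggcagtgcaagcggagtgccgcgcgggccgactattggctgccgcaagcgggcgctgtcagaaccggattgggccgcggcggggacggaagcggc

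HSPA5 held an ERSE that spans bases -66 to -48 from the start, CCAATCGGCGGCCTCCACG. HSP90B1 held an ERSE in each orientation, at -194 to -176 and at -89 to -71. HYOU1 held ERSE-II on the opposite strand at -185 to -175 and again at -79 to -69, and the first of these overlaps a TGACGTGG at -188 to -181. SDF2L1 held ERSE-II on the opposite strand at -188 to -178. DNAJC10 had the letters of TGACGTGG on the opposite strand at -125 to -118. The windows of DNAJB9, DNAJB11, DNAJC3 and SIL1 did not contain these exact letters, which says nothing about binding there or elsewhere. Of all 35116 windows in the table, 0.0769% held an ERSE, 0.0541% an ERSE-II and 0.729% the letters TGACGTGG. Among the 13294 windows of genes with at least 5 CPM in some library, these shares were 0.120%, 0.0978% and 0.880%. A match is a description of the sequence and no evidence that a factor was bound in these cells.

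In WT, 7 of the 10 chaperone genes were at least 2-fold higher than in non-transfected cells, where the background of all genes tested was 0.726%. The size rule asked for a ratio of 2, an interval above equality and at least 5 CPM in either library. The same 7 genes were the ones past 1.5-fold, against a background of 1.4%. In M67V, 6 were at least 2-fold higher, against a background of 0.725%, and 7 at least 1.5-fold higher, against 1.62%. Beyond counting error, 9 of the 10 were higher in WT, against 16.0% of all genes, and 9 in M67V, against 11.3%. A gene with many counts passes this rule at a smaller ratio, and such shares, here and below, are not matched for depth. The gene between both rules was DNAJB9, at a log2 ratio of 0.98 (0.73 to 1.26) in M67V. None of the 10 reached 1.5-fold in N267star, ex2-3del or ex8-14del, and none was lower by 1.5-fold in any allele. The median log2 ratio of the 10 genes to non-transfected cells was 1.33 with WT, 1.40 with M67V, 0.19 with N267star, 0.13 with ex2-3del and 0.20 with ex8-14del. The median of all genes tested lay between -0.007 and 0.003 in these comparisons, which share the non-transfected library. Library scaling places the bulk of genes near a log2 ratio of 0. This median, and the shares of genes above 0 given below, follow largely from that scaling.

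**Figure D1:**
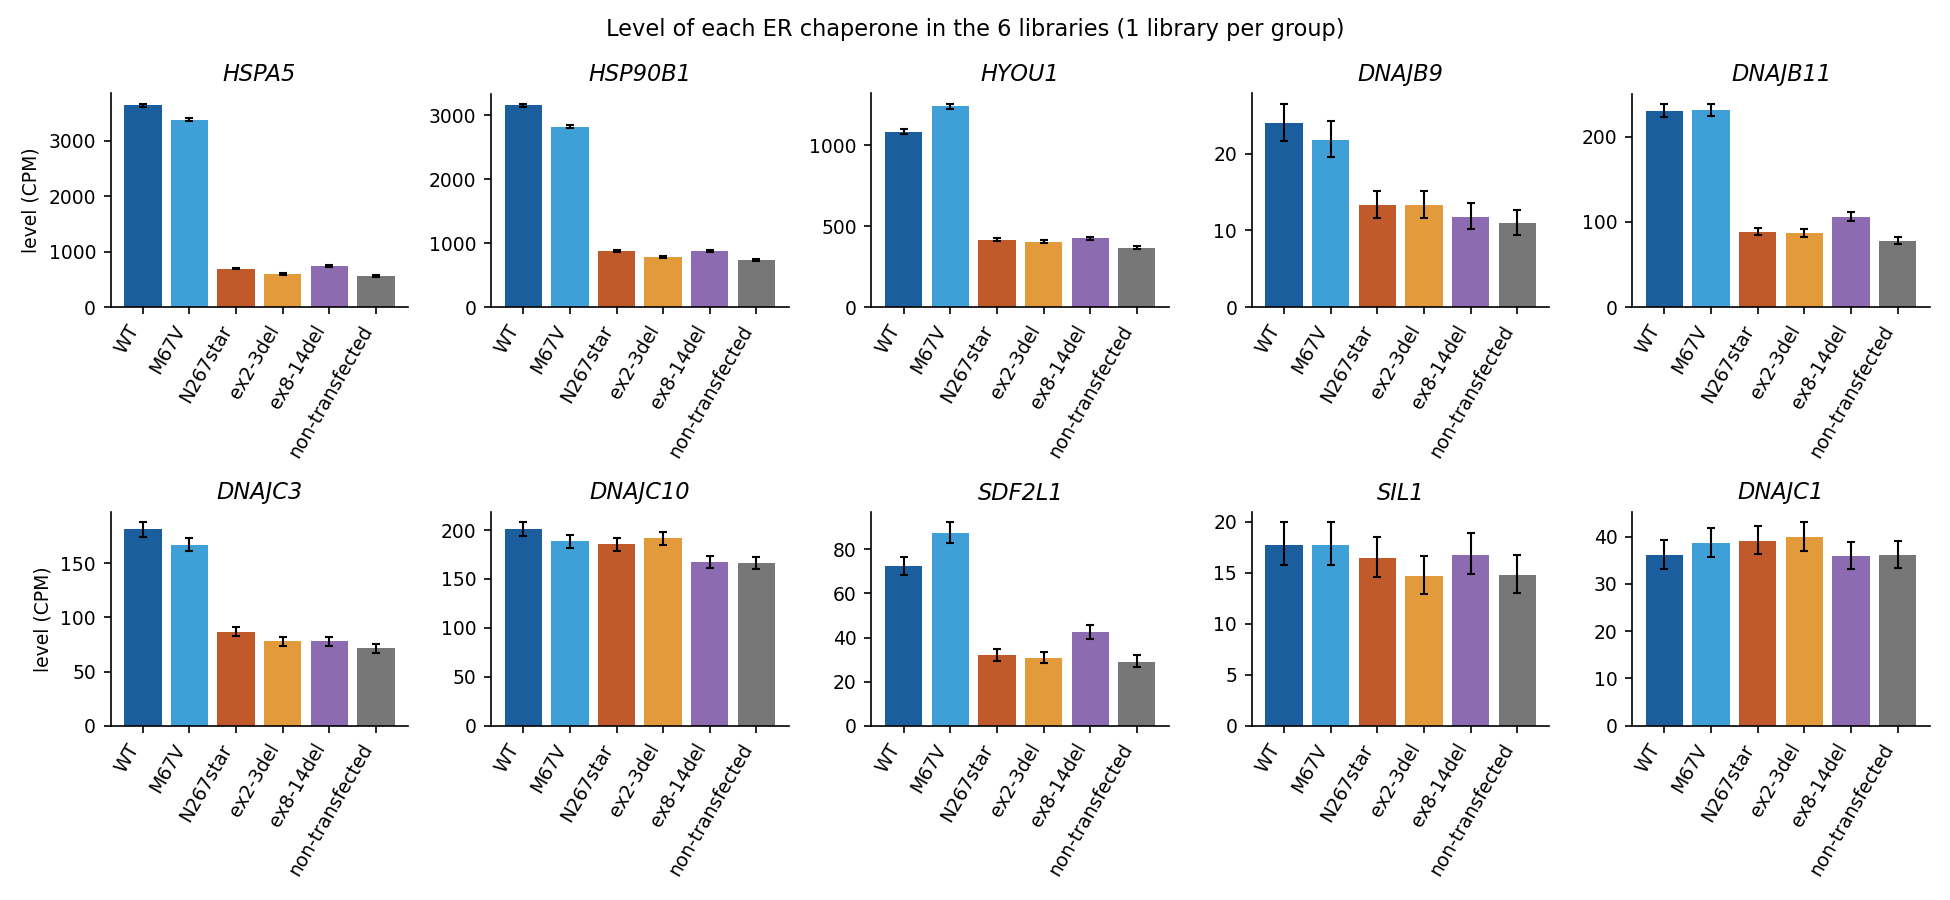
Level of the 10 ER chaperone genes in CPM (vertical axes from 0, a separate scale for each gene) in the 6 libraries, with exact 95% Poisson intervals that cover counting error. WT and M67V stand above the other 4 libraries in 7 genes, while DNAJC10, SIL1 and DNAJC1 lie close to one level throughout.

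The ATP-driven chaperones at the centre of the system had the largest ratios of the 10 in WT and M67V. HSPA5 was at 3634 CPM with WT, 3375 with M67V, 693 with N267star, 599.7 with ex2-3del and 741 with ex8-14del, against 559 CPM in non-transfected cells. The 6 libraries thus fell into 2 high ones and 4 within a narrow band, and every neighbouring pair in the order of levels was apart beyond counting error. The log2 ratio to non-transfected cells was 2.70 (2.67 to 2.73) in WT and 2.59 (2.56 to 2.63) in M67V. In WT it was the 13th highest ratio of 11301 genes tested, and in M67V the 17th of 11304.

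HSP90B1 was at 3149.5 CPM with WT, 2818.5 with M67V, 876 with N267star, 781 with ex2-3del and 879.6 with ex8-14del, against 733 CPM in non-transfected cells. N267star and ex8-14del did not differ beyond counting error (log2 ratio of ex8-14del to N267star 0.01, -0.03 to 0.04), and the other neighbours in the order did. Its log2 ratio to non-transfected cells was 2.10 (2.08 to 2.13) in WT and 1.94 (1.91 to 1.97) in M67V, smaller than that of HSPA5. HSPA5 had fewer counts than HSP90B1 in non-transfected cells and more in WT. The ratio of HSPA5 to HSP90B1 counts was 1.15 with WT, 1.20 with M67V, 0.792 with N267star, 0.768 with ex2-3del and 0.842 with ex8-14del, against 0.763 in non-transfected cells. Per kilobase of the principal GENCODE v29 transcript (3908 bases for HSPA5, 2858 for HSP90B1), the levels of HSPA5 and HSP90B1 were 929.9 and 1102 CPM per kilobase in WT, and 143 and 256 in non-transfected cells, so that HSP90B1 stood above HSPA5 in both on this scale.

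HYOU1, a large relative of HSP70 that serves BiP as a nucleotide exchange factor, was at 1084.5 CPM with WT, 1239.9 with M67V, 417 with N267star, 403 with ex2-3del and 426 with ex8-14del, against 368 CPM in non-transfected cells. It was highest in M67V, unlike HSPA5 and HSP90B1, which were highest in WT. Its log2 ratio to non-transfected cells was 1.56 (1.52 to 1.60) in WT and 1.75 (1.71 to 1.80) in M67V. SIL1, the other nucleotide exchange factor for BiP, was at 17.8 CPM with WT, 17.7 with M67V, 16.4 with N267star, 14.7 with ex2-3del and 16.8 with ex8-14del, against 14.8 CPM in non-transfected cells. No neighbours in its order of levels were apart beyond counting error. Its ratio in WT, 0.26, had an interval of 0.01 to 0.52, so that its 242 to 282 counts per library could not show a change much below 1.2-fold. The log2 ratios of HYOU1 and SIL1 in WT have intervals that do not overlap.

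Among the J-domain genes with a role in the ER lumen, DNAJB11, which binds unfolded clients and hands them to BiP, was at 230.0 CPM with WT, 231 with M67V, 88.7 with N267star, 86.6 with ex2-3del and 106 with ex8-14del, against 77.7 CPM in non-transfected cells. WT and M67V were alike within counting error and both stood above the rest. The log2 ratio to non-transfected cells was 1.56 (1.47 to 1.66) in WT and 1.57 (1.48 to 1.66) in M67V. In the annotation DNAJB11 overlaps TBCCD1 on the other strand. TBCCD1 was at 20.02 CPM in WT and 14.7 CPM in non-transfected cells, and no strand setting is stated, so reads shared by both genes cannot be told apart.

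SDF2L1, a small ER lumen protein that works as a partner of the DNAJB11 protein, was at 72.4 CPM with WT, 87.6 with M67V, 32.0 with N267star, 30.8 with ex2-3del and 42.6 with ex8-14del, against 29.1 CPM in non-transfected cells. It shared with HYOU1 the highest level in M67V and had ex8-14del apart from the 3 lower libraries. The log2 ratio to non-transfected cells was 1.31 (1.16 to 1.47) in WT and 1.59 (1.44 to 1.74) in M67V.

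DNAJC3, a lumenal J-domain protein with tetratricopeptide repeats that also bears the name p58IPK, was at 181 CPM with WT, 167 with M67V, 86.9 with N267star, 78.0 with ex2-3del and 78.0 with ex8-14del, against 71.4 CPM in non-transfected cells. WT and M67V were the highest, and ex2-3del and ex8-14del did not differ beyond counting error. The log2 ratio to non-transfected cells was 1.34 (1.25 to 1.44) in WT and 1.23 (1.13 to 1.33) in M67V. DNAJB9, which recruits BiP to the lumenal domain of the stress sensor IRE1 and binds misfolded proteins bound for degradation, had far fewer reads. It was at 24.0 CPM with WT, 21.8 with M67V, 13.25 with N267star, 13.3 with ex2-3del and 11.8 with ex8-14del, against 11.0 CPM in non-transfected cells. These levels rest on 180 to 381 counts, and WT and M67V were apart from the others while the other 4 libraries were not apart from their neighbours. DNAJB9 overlaps THAP5 on the other strand, which was at 44.3 CPM in WT and 38.5 CPM in non-transfected cells.

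DNAJC10 and DNAJC1 did not follow the rest. DNAJC10, a reductase that joins a J domain to thioredoxin domains and opens disulfides of proteins to be degraded, was at 201 CPM with WT, 188 with M67V, 185 with N267star, 191 with ex2-3del and 167 with ex8-14del, against 166 CPM in non-transfected cells. Its log2 ratio of 0.28 (0.20 to 0.35) in WT stood beside 0.21 (0.13 to 0.28) in ex2-3del, and the direct ratio of ex2-3del to WT was -0.07 (-0.14 to 0.00). WT, the highest library, was therefore not set apart from an allele that left HSPA5 near its control level. DNAJC1, an ER membrane J-domain protein that can dock at ribosomes, was at 36.1 CPM with WT, 38.7 with M67V, 39.2 with N267star, 39.9 with ex2-3del and 35.9 with ex8-14del, against 36.1 CPM in non-transfected cells. No neighbours in that order were apart. Its log2 ratio in WT was 0.00 (-0.17 to 0.17), an interval that leaves out the 2-fold change of the genes above.

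**Figure D2:**
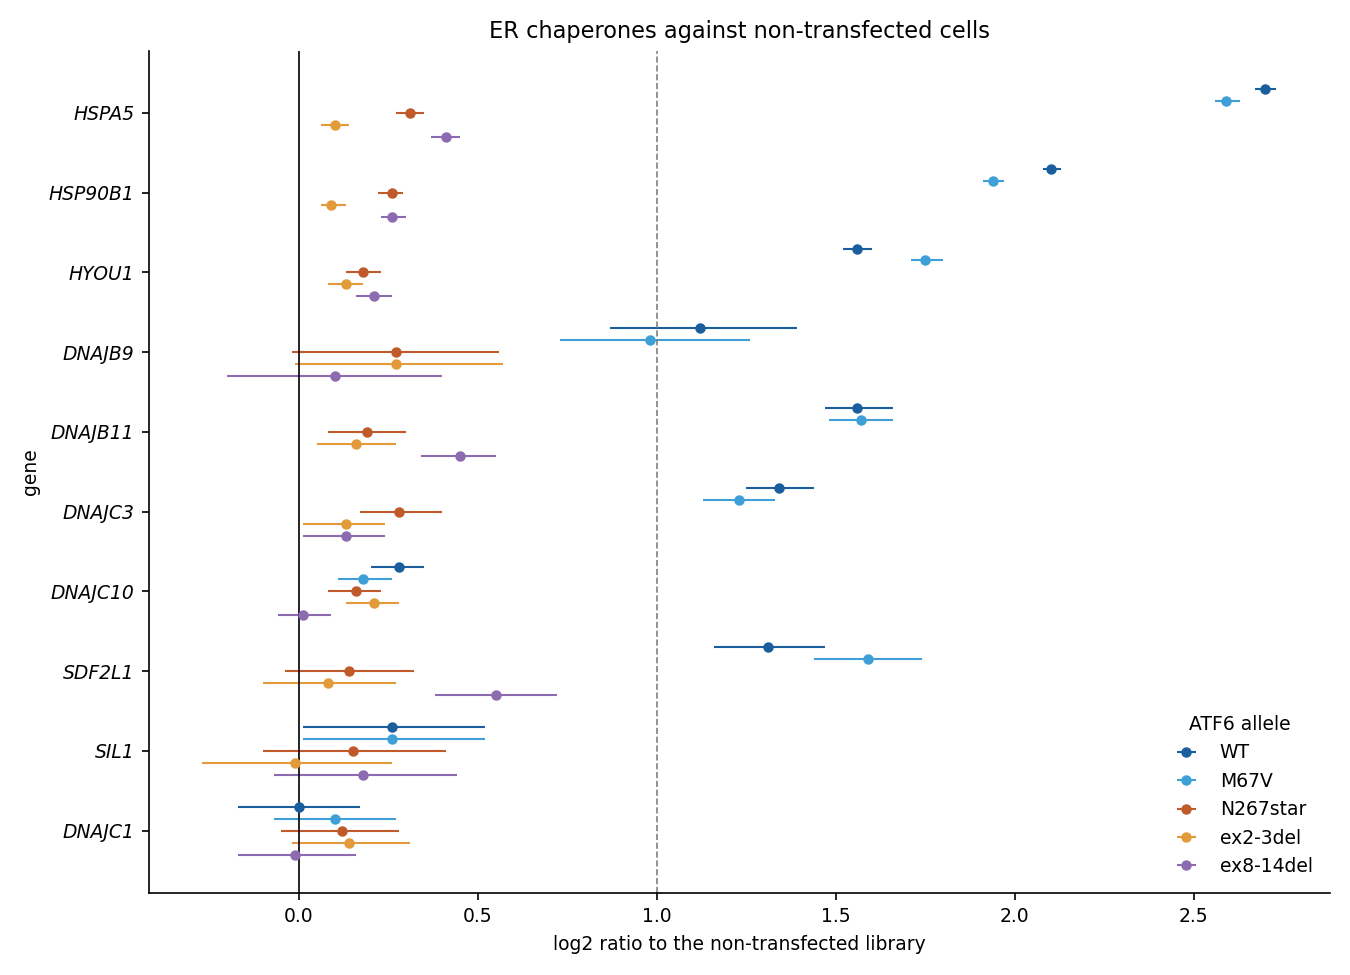
Log2 ratio of each chaperone gene to the non-transfected library for the 5 ATF6 alleles, with exact 95% counting intervals, the dashed line marking a 2-fold higher level. WT and M67V lie at 0.98 or above for 7 genes, and N267star, ex2-3del and ex8-14del lie at 0.55 or below for all 10.

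Together the 10 genes held 0.856% of all counts with WT (exact binomial 95% interval 0.851 to 0.860), 0.807% with M67V, 0.246% with N267star, 0.226% with ex2-3del and 0.2505% with ex8-14del, against 0.208% (0.206 to 0.210) in non-transfected cells. HSPA5 made up 42.1% of these counts in WT and 41.2% in M67V, against 27.1% in non-transfected cells. HSP90B1 made up between 34.4% and 36.5% in the 6 libraries. HYOU1 was 12.6% of the summed counts in WT and 15.1% in M67V, against 17.8% in non-transfected cells, and the other 7 genes were 8.84% in WT and 9.19% in M67V, against 19.7% in non-transfected cells. The ratio of HSPA5 to HYOU1 counts was 3.35 (3.29 to 3.41) with WT, 2.72 (2.68 to 2.77) with M67V, 1.66 (1.61 to 1.71) with N267star, 1.49 (1.44 to 1.53) with ex2-3del and 1.74 (1.69 to 1.79) with ex8-14del, against 1.52 (1.47 to 1.57) in non-transfected cells. That ratio was thus higher in WT than in M67V, and higher in both than in the other 4 libraries. Per count of DNAJB11, HSPA5 had 15.8 counts in WT and 14.6 in M67V, against 7.19 in non-transfected cells, and per count of DNAJC3 it had 20.04 in WT and 20.2 in M67V.

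M67V was set directly against WT to ask how the missense change bears on these genes. The differences were small and went both ways. HYOU1 was 1.14-fold (log2 ratio 0.19, 0.16 to 0.22) and SDF2L1 1.21-fold (0.28, 0.16 to 0.39) the WT level. HSPA5 was 0.929 times (-0.11, -0.12 to -0.09), HSP90B1 0.895 times (-0.16, -0.18 to -0.14), DNAJC3 0.923 times (-0.12, -0.19 to -0.04) and DNAJC10 0.938 times (-0.09, -0.17 to -0.02) the WT level. So 2 of the 10 genes were higher beyond counting error, where 13.6% of all genes tested were, and 4 were lower, where 11.0% were. Among genes with at least 100 CPM in either library, the central 90% of log2 ratios of M67V to WT ran from -0.15 to 0.16, which HYOU1 exceeded and HSP90B1 just passed on the low side, with HSPA5, DNAJB11, DNAJC3 and DNAJC10 inside. The ATF6 level itself, not scaled for transcript length, was 1.30-fold higher in M67V than in WT. Whether these ratios exceed the spread between cultures of 1 allele cannot be told from 1 library each.

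**Figure D3:**
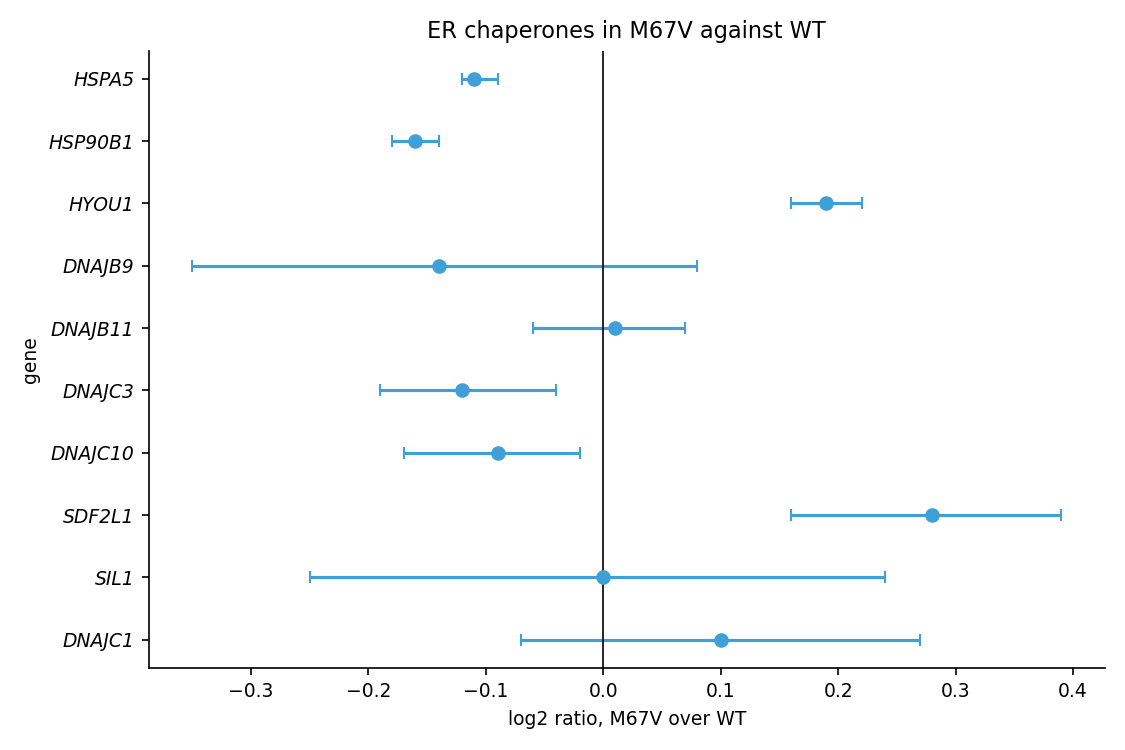
Log2 ratio of each chaperone gene in M67V over WT, with exact 95% counting intervals. HYOU1 at 0.19 and SDF2L1 at 0.28 lie above 0, HSPA5, HSP90B1, DNAJC3 and DNAJC10 lie below 0, and the intervals of the other 4 genes cross it.

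In the library with the nonsense allele N267star, the chaperone genes stood slightly above their level in non-transfected cells. An effect of transfection itself was not tested, here or for the deletion alleles. All 10 log2 ratios were above 0, where 50.7% of all genes tested were. In ex2-3del 9 were, against 49.4% of all genes tested, and in ex8-14del 9, against 51.1%. The ratios in N267star ran from 0.12 for DNAJC1 to 0.31 (0.27 to 0.35) for HSPA5. DNAJC3 was at 0.28 (0.17 to 0.40), HSP90B1 at 0.26 (0.22 to 0.29), DNAJB11 at 0.19 (0.08 to 0.30) and HYOU1 at 0.18 (0.13 to 0.23). Beyond counting error, 6 of the 10 were higher, against 15.6% of all genes, while the background was 0.0533% at 2-fold and 0.133% at 1.5-fold, with no chaperone at either. Without the filter on low values these backgrounds were 0.293% and 0.454%. For genes with at least 100 CPM, the central 90% of ratios ran from -0.17 to 0.19. HSPA5 and HSP90B1 lay above that band, and HYOU1 and DNAJC10 inside it.

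With ex2-3del, 6 of the 10 genes were higher than in non-transfected cells beyond counting error, against 10.1% of all genes, a share not matched for depth. The sizes were the smallest of the 5 alleles for HSPA5 at 0.10 (0.06 to 0.14) and HSP90B1 at 0.09 (0.06 to 0.13). HYOU1 was at 0.13 (0.08 to 0.18), DNAJB11 at 0.16 (0.05 to 0.27) and DNAJC10 at 0.21 (0.13 to 0.28). The background for this allele was 0.0709% at 2-fold and 0.168% at 1.5-fold, and no chaperone reached either. Without the filter on low values they were 0.359% and 0.646%. The central 90% of genes with at least 100 CPM ran from -0.15 to 0.13, a band that holds HSPA5 and HSP90B1. HYOU1 lay at its upper limit and DNAJC10 above it.

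With ex8-14del, the pattern over the 10 genes was uneven. SDF2L1 was 1.46-fold (0.55, 0.38 to 0.72), DNAJB11 1.36-fold (0.45, 0.34 to 0.55) and HSPA5 1.33-fold (0.41, 0.37 to 0.45) the non-transfected level, while DNAJC10 stood at 0.01 (-0.06 to 0.09), DNAJB9 at 0.10 (-0.20 to 0.40) and DNAJC3 at 0.13 (0.01 to 0.24). Again 6 genes were higher beyond counting error, against 12.6% of all genes, and no chaperone passed 2-fold or 1.5-fold, where the backgrounds were 0.124% and 0.355%, or 0.405% and 0.691% without the filter on low values. Set directly against ex2-3del, ex8-14del was higher in SDF2L1 (0.46, 0.30 to 0.63), HSPA5 (0.31, 0.27 to 0.34), DNAJB11 (0.29, 0.19 to 0.39), HSP90B1 (0.17, 0.14 to 0.21) and HYOU1 (0.08, 0.03 to 0.13) and lower in DNAJC10 (-0.19, -0.27 to -0.12). Against N267star it was higher in SDF2L1 (0.41, 0.25 to 0.58), DNAJB11 (0.26, 0.16 to 0.36) and HSPA5 (0.10, 0.06 to 0.13) and lower in DNAJC3 (-0.16, -0.26 to -0.05) and DNAJC10 (-0.15, -0.22 to -0.07). SDF2L1 and DNAJB11 were thus the members with the largest ratios in this library, with intervals that overlap that of HSPA5. HSP90B1 was at 0.26 (0.23 to 0.30) and HYOU1 at 0.21 (0.16 to 0.26) against non-transfected cells. For genes with at least 100 CPM, the central 90% of these ratios ran from -0.16 to 0.15. HSPA5, HSP90B1, HYOU1 and DNAJB11 lay above that band, and DNAJC10 inside it. The ATF6 level in ex8-14del, not scaled for transcript length, was 28.3-fold that of non-transfected cells, the highest of the 5 alleles.

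The increase over non-transfected cells was also expressed as a share of the increase in WT for the 7 genes at 1.5-fold in WT, with approximate 95% intervals from counting error. All shares rest on the 1 non-transfected library, and the part of transfection itself in them was not tested. For HSPA5 it was 91.6% with M67V, 4.37% (3.83 to 4.92) with N267star, 1.33% (0.797 to 1.85) with ex2-3del and 5.92% (5.37 to 6.47) with ex8-14del. For HSP90B1 it was 86.3% with M67V, 5.94% with N267star, 2.01% with ex2-3del and 6.09% with ex8-14del. HYOU1 had 121.7% with M67V, 6.91% with N267star, 4.925% with ex2-3del and 8.07% with ex8-14del. SDF2L1 reached 135% (118 to 152) in M67V and 31.2% (22.3 to 40.0) in ex8-14del, and DNAJB11 18.6% (14.5 to 22.6) in ex8-14del. DNAJC3 reached 14.1% (8.86 to 19.3) in N267star. The shares of SDF2L1 and DNAJB11 in ex8-14del therefore lay above that of HSPA5 in the same library by more than counting error. Each share divides by the gene's own increase in WT. The log2 ratio in WT was 2.70 for HSPA5, 1.31 for SDF2L1 and 1.56 for DNAJB11. The log2 ratios of SDF2L1 and DNAJB11 in ex8-14del have intervals that overlap that of HSPA5.

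**Figure D4:**
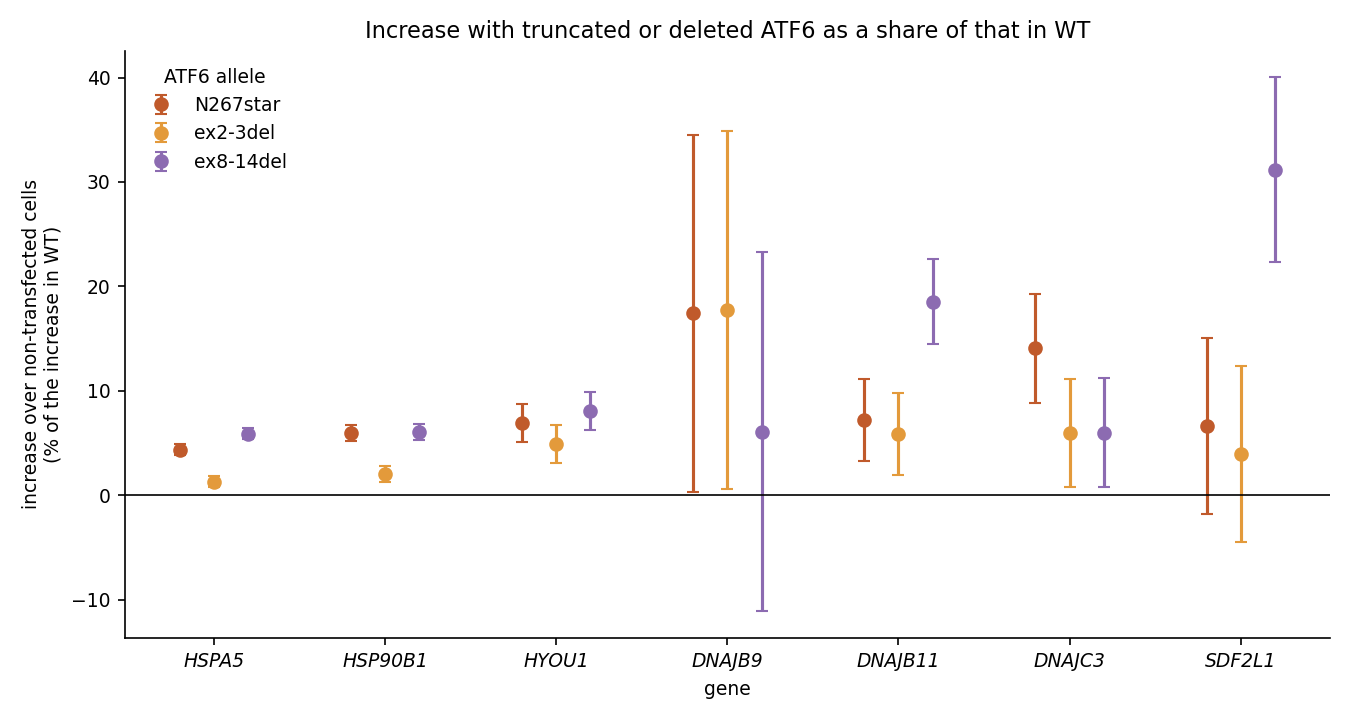
Increase over the non-transfected library with N267star, ex2-3del and ex8-14del, in percent of the increase in WT, for the 7 genes at least 1.5-fold higher in WT, with approximate 95% counting intervals. All points lie below 20% except SDF2L1 in ex8-14del, at 31.2%.

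Against WT, the same groups gave the reverse direction. In N267star, 6 of the 10 genes were at least 2-fold lower than in WT, against a background of 0.665%, and 7 at least 1.5-fold lower, against 1.34%. In ex2-3del 6 were 2-fold lower, against 0.575%, and 7 were 1.5-fold lower, against 1.27%. In ex8-14del 6 were 2-fold lower, against 0.514%, and 7 were 1.5-fold lower, against 1.14%. These comparisons share the WT library. HSPA5 had the lowest ratios, at -2.39 (-2.42 to -2.36) in N267star, -2.60 (-2.63 to -2.57) in ex2-3del and -2.29 (-2.32 to -2.27) in ex8-14del. DNAJB9 was the gene between both rules in N267star, at -0.85 (-1.10 to -0.61), and in ex2-3del, at -0.85, while SDF2L1 was in ex8-14del, at -0.76 (-0.90 to -0.63). DNAJC1 did not differ from WT beyond counting error in any of the 3.

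Relatives of these chaperones in other compartments had medians near 0, with single exceptions. Of 33 measured cytosolic and nuclear HSP70, HSP90 and J-domain genes and cofactors, 1 was at least 1.5-fold higher in WT and 1 in M67V, against 1.4% of all genes tested in WT and 1.62% in M67V, and the median log2 ratio was 0.02 in WT and -0.01 in M67V. That gene was DNAJB5, a cytosolic J-domain gene, at 36.7 CPM in WT and 40.8 CPM in M67V, against 16.8 CPM in non-transfected cells. Of 11 measured mitochondrial relatives none reached 1.5-fold in any allele, with medians of 0.01 in WT and -0.03 in M67V and values between -0.30 and 0.13 in these alleles. In ex8-14del 1 of the 33 cytosolic and nuclear genes was at least 1.5-fold higher, against 0.355% of all genes tested. It was HSPA2, an HSP70 gene best known from the testis, at 6.25 CPM, against 3.42 CPM in non-transfected cells (0.85, 0.39 to 1.36). HSPA2 passed the filter on low values in this comparison only through ex8-14del. It was at 5.14 CPM in ex2-3del, a log2 ratio of 0.57, and below 5 CPM in WT, M67V and N267star.

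Other genes of the ER system were counted by the same rule. Of 18 measured further ER J-domain genes, HSP70 relatives and BiP or GRP94 partners, 0 reached 1.5-fold above non-transfected cells in WT and 1 did in M67V, with medians of 0.11 and 0.06, where 1.4% of all genes did in WT and 1.62% in M67V. The gene in M67V was OS9, a lectin that delivers misfolded glycoproteins for degradation, at 295 CPM in M67V and 188 CPM in non-transfected cells. SEC63, HSPA13, SDF2, CNPY2, CNPY3 and CNPY4 were in this list and none of them reached 1.5-fold in any allele. Of 29 measured ER folding enzymes and lectin chaperones, 7 reached 1.5-fold in WT and 7 in M67V, with medians of 0.26 and 0.24, against the same 1.4% and 1.62% of all genes. PDIA4, a disulfide isomerase, had the highest ratio of that list, at 3.89-fold in WT and 4.51-fold in M67V, above all of the 10 chaperones except HSPA5 and HSP90B1 in WT and except HSPA5 in M67V. P4HB, the founding disulfide isomerase, was at 2.94-fold in WT, and CALR, a lectin chaperone, at 2.21-fold. P4HB was also at 1.45-fold (0.54, 0.50 to 0.57) in ex8-14del. Among 19 regulators of the response, 6 were 1.5-fold higher in WT and 6 in M67V, counting ATF6 itself, with medians of 0.08 and 0.22 and the same shares of all genes. In N267star, ex2-3del and ex8-14del no folding enzyme reached 1.5-fold, and of the regulators ATF6 alone did. All these lists were described by counts and medians, and their difference from the 10 genes was not tested.

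**Figure D5:**
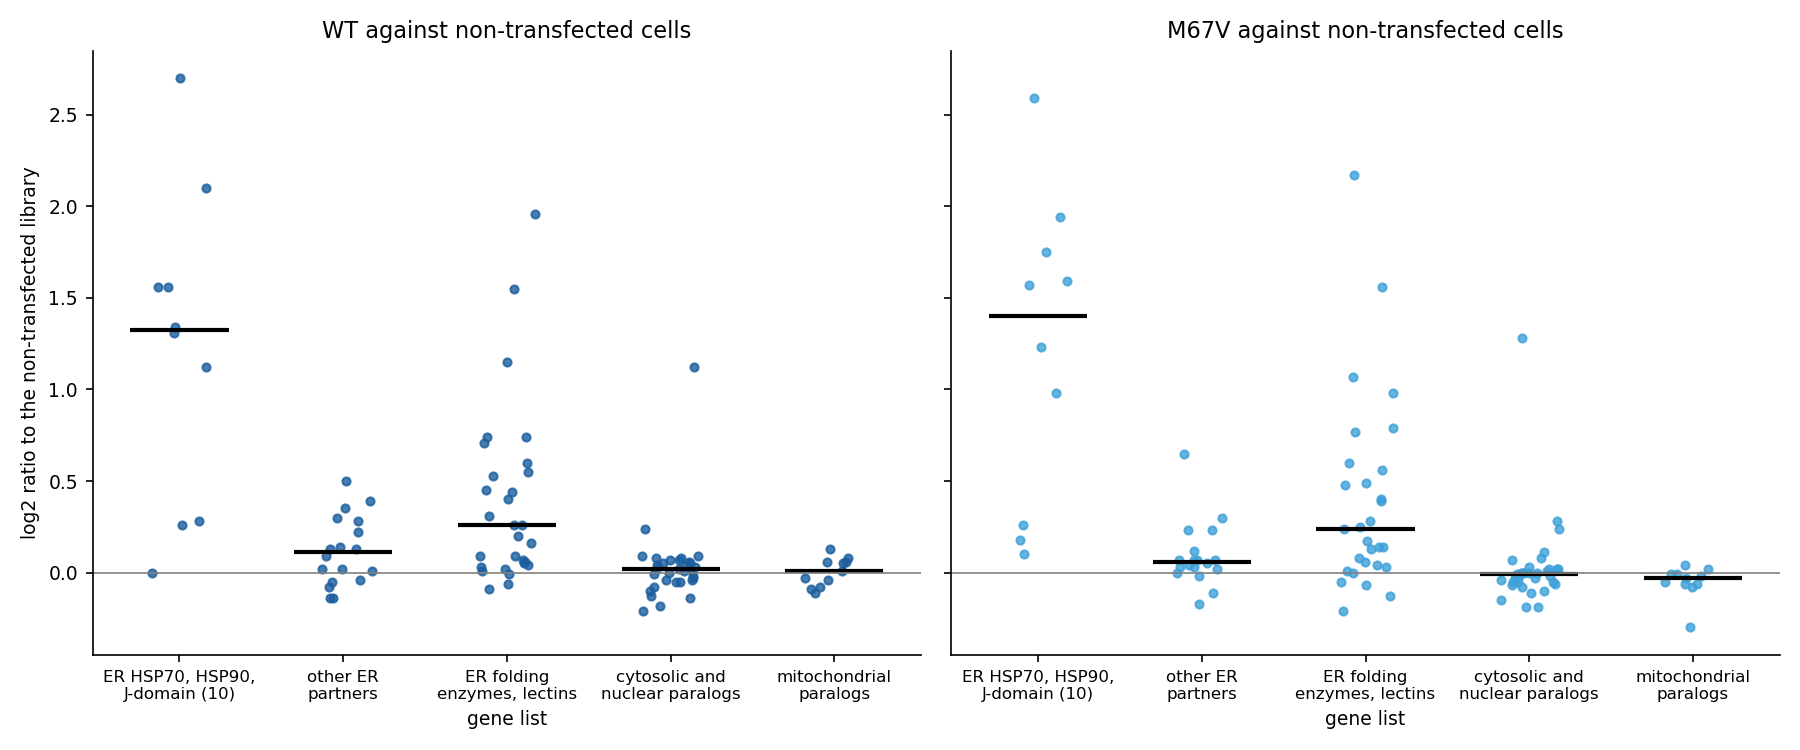
Log2 ratio to the non-transfected library in WT (left) and M67V (right) for the 10 ER chaperone genes and 4 lists of related genes, with 1 point per gene and a bar at the median. The medians of the 10 genes are 1.33 in WT and 1.40 in M67V, and those of the cytosolic and mitochondrial relatives lie between -0.03 and 0.02.

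Across the 6 libraries, the gene outside the 10 whose profile lay closest to that of HSPA5 was HERPUD1, an ER membrane protein of protein degradation. The measure was the root mean square distance between log2 CPM profiles, each centred on its own mean, over 11413 genes with at least 5 CPM in some library. HERPUD1 had a distance of 0.09, with 343 CPM with WT, 309.8 CPM with M67V, 58.2 with N267star, 54.4 with ex2-3del and 58.1 with ex8-14del, against 48.5 CPM in non-transfected cells. SYTL2 at 0.17, CRISPLD2 at 0.20, CORO1A at 0.22 and TICAM2 at 0.23 came next. SYTL2, CRISPLD2 and TICAM2 reached 5 CPM in WT and M67V and in no other library. Genes at that level enter the comparison through their high libraries, which favours profiles like that of HSPA5, and the order among them carries more counting error. Of the chaperones, HSP90B1 at 0.27 was closest to HSPA5, followed by HYOU1 at 0.45, DNAJB11 at 0.51, SDF2L1 at 0.58, DNAJC3 at 0.62 and DNAJB9 at 0.75. SIL1, DNAJC10 and DNAJC1 lay between 1.07 and 1.17, and 6105 other genes were closer to HSPA5 than DNAJC1 was.

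The motif matches were set beside the levels as a description. Of the 14 genes tested in WT with an ERSE in a promoter window, 8 were at least 1.5-fold higher in WT, namely HSPA5, HSP90B1, CALR, CANX, CRELD2, PDIA6, TRIM5 and XBP1, where 1.4% of all genes tested in WT were. Of 13 genes with an ERSE-II, 3 were, namely HYOU1, SDF2L1 and HERPUD1, against the same 1.4%. The chaperones without these letters in their windows included DNAJB11, DNAJC3 and DNAJB9, which were 2.96-fold, 2.54-fold and 2.18-fold higher in WT, as well as SIL1.

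In the authors' deposited table, which compares 1 library with 1 by DESeq, 7 of the 10 genes had an adjusted p-value under 0.05 with WT, 7 with M67V, 0 with N267star, 0 with ex2-3del and 3 with ex8-14del. Over all genes, the authors' deposited table has such a value for 221 of 16850 in WT, 231 of 16758 in M67V, 17 of 16765 in N267star, 27 of 16744 in ex2-3del and 46 of 16816 in ex8-14del. The 3 genes in the authors' deposited table for ex8-14del were HSPA5 (fold 1.33, adjusted p 0.0094), DNAJB11 (1.37, 0.031) and SDF2L1 (1.47, 0.041). For the smallest called change in WT, DNAJB9, the authors' deposited table gave a fold of 2.19 and an adjusted p of 1.9e-06. These p-values rest on an assumed spread, since there were no replicates.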

How the data were processed

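Per the labels' protocols, HEK293 cells were transfected using Lipofectamine, total RNA was taken with the RNeasy Mini Kit, and BGI built the libraries. For the 6 libraries the authors deposited 1 estimated count for each gene symbol, a fractional value in up to 3.55% of rows. Build GRCh37.p13 and the tool DESeq (no version) are listed in the submitters' processing notes, and no source used here names an aligner, a counter or a strand setting. The authors also deposited comparison tables with a fold (ratio of scaled counts, with its log2 in a further sheet) and an adjusted p-value per gene, which rest on 1 library per side. A second count table with 6 columns of per-sample values was not used, because 1 column name matches no sample label.

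From the table, a placeholder of 0.028 for genes without reads was set to 0 and each expected count was rounded. Of 38072 rows, 28 that carried a date in place of a name were left out, holding between 0.215% and 0.231% of the counts, and rows sharing a symbol (94 rows, 43 symbols) were summed. TMM scaling (edgeR 4.0.16, R 4.3.3) gave the effective sizes of the libraries, and log2 ratios used a prior count of 2. The 95% intervals condition on the sum of both counts (exact binomial, Clopper-Pearson) and were computed with Python 3.11.15, numpy 2.4.6, pandas 2.3.3 and scipy 1.17.1. Figures used matplotlib 3.10.9. A gene was tested with at least 5 CPM in either library, and all genes went through the same rule for the background. Without molecular identifiers, PCR copies cannot be told from separate molecules, and the intervals cover counting error only. The steps were tested on simulated data with counting error only and changes well beyond 2-fold. Those data held no spread between cultures and no change near 1.5-fold or 2-fold, so they do not show how the rules behave there. Alternatives were DESeq2 1.42.0 size factors, plain totals, a prior count of 0.5, no low-value filter, unrounded counts, and repeated symbols left out.

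The 10 genes, the gene lists and the rule for the genes named were chosen with earlier results of these data known. That rule took the 10 genes, ATF6, the 5 other genes with a profile closest to HSPA5 by the distance given in the text, and up to 4 members per list past 1.5-fold. Further list members, overlapping genes, marker genes and genes with a promoter match are also named and were picked with their values in view. Transcript lengths and overlaps came from GENCODE v29 on GRCh38, and no coordinates were carried between builds.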

Additional observations from a re-analysis of the deposited data

How the results depend on the processing

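Over 6 alternative settings and 118 results, which made 705 pairs of a result and a setting, the counts of chaperones at 2-fold and at 1.5-fold stayed within 1.5 times and no ratio beyond counting error changed sign. In 703 pairs a log2 ratio or median stayed within its counting interval, or a count stayed within 1.5 times. The other 2 were log2 ratios of M67V to non-transfected cells under plain library totals, 2.56 for HSPA5 and 1.91 for HSP90B1. Shares of all genes moved more. Without the filter on low values, the share 2-fold and 1.5-fold higher than non-transfected cells was 0.293% and 0.454% in N267star, 0.359% and 0.646% in ex2-3del, and 0.405% and 0.691% in ex8-14del, and the share 2-fold lower than WT was 1.01% in N267star and 0.851% in ex8-14del. The other printed shares at 2-fold and 1.5-fold stayed within 1.5 times under all 6 settings. The largest shift of any log2 ratio or median was 0.03. No paired analysis was possible because each group has 1 library. Leaving out a library was not possible either, since it would remove its group. Depth limits DNAJB9 and SIL1 most, with 180 to 381 counts per library: the 1.21-fold ratio of DNAJB9 in N267star included equality.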
